A study of Mus musculus with 12 samples.

Results

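The genes described here encode the glutathione system, the thioredoxin and peroxiredoxin systems, the superoxide dismutases and the Nrf2 sensor with some of its classical targets. They were chosen by name from the protein-coding genes of the count table, as the glutathione transferases of classes alpha, kappa, mu, omega, pi, theta and zeta together with a named list of antioxidant genes. In all, 53 of its 21848 protein-coding genes, out of 57490 genes in all, met the rule. The mRNA came from kidneys of males aged 13 weeks, and each of the groups Ctrl, Model and YHY held 4 of them. The Ctrl mice were db/m, heterozygous for the Lepr mutation on the BKS background, and received purified water by gavage. The Model mice were db/db, lacked a working leptin receptor, were enrolled because their glucose was high, and received water in an equal volume. The YHY mice were db/db mice of the same kind that were gavaged once daily for 4 weeks with a water extract of Yiqi Huoxue Yangyin Decoction, a decoction of Astragalus, Ligusticum, Pueraria, Rehmannia and Trichosanthes, at 6.24 g/mL. The strain name also carries the coat colour allele Dock7m. The sample labels call the tissue kidney and the series description calls it renal cortex, and which of the study's dose groups was sequenced is not stated. A library stands for 1 mouse.

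Glutathione is built from glutamate, cysteine and glycine by glutamate-cysteine ligase and glutathione synthetase, and glutathione reductase restores it after oxidation at the cost of NADPH. Thioredoxin and its reductases run a parallel cycle that feeds the peroxiredoxins, while superoxide dismutases turn superoxide into the hydrogen peroxide that peroxidases then remove. Nrf2, the product of Nfe2l2, is held down by Keap1 and, once released, binds antioxidant response elements near many of these genes. The proximal tubule is rich in mitochondria, breaks down glutathione at its brush border and is the main source of the secreted peroxidase Gpx3.

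Library totals ran from 29632718 to 33276634 counts in Ctrl, from 24415658 to 29784346 in Model and from 25149764 to 29698342 in YHY. Transcripts of the mitochondrial genome took 18.6, 22.7, 18.4 and 18.5% of the counts in the Ctrl mice, 41.2, 58.9, 55.3 and 53.4% in the Model mice and 53.8, 64.6, 54.6 and 54.2% in the YHY mice. The group means were 19.5 ± 2.12% (SD, n = 4), 52.2 ± 7.68% and 56.8 ± 5.21%. Model 1 had the lowest share among the db/db mice, and no Ctrl mouse reached it. Wilson 95% intervals of these shares were at most 0.0396 points wide and cover counting error only. Levels are given as CPM, counts relative to library size after TMM scaling, a method that sets libraries to a common level from the bulk of their genes, and the part of the mitochondrial share in the results below was not tested.

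Of the 53 genes, 51 passed the count filter and were tested, and Gstm3 and Gstt4, with 0 to 14 and 0 to 12 counts in a mouse, did not. In the comparison of Model with Ctrl, 21 genes were lower and 8 were higher with adjusted P below 0.05 (edgeR quasi-likelihood test, Benjamini-Hochberg adjustment over 17431 genes), where 18.5% of all genes tested were lower and 19.6% were higher. Of the 8, Gsta1, Gsta5 and Mgst2 had 0 to 11, 3 to 64 and 2 to 15 counts in a Ctrl mouse. They passed the count filter only through the db/db mice, where they were higher, so a lower call was hardly open to them. The median log2 fold change of the 51 genes was -0.39, beside 0.04 for all genes tested. Between YHY and Model, 8 genes were lower in YHY and 1 was higher, where 7.62% of all genes tested were lower and 5.63% were higher, and the medians were -0.25 and 0.02. All 4 Model mice lay below all 4 Ctrl mice for 20 of the 53 genes and above them for 5, shares that were 20.3% and 19.9% over all genes tested. All 4 YHY mice lay below all 4 Model mice for 11 genes and above them for 2, beside 9.28% and 6.83%. The comparisons share the Model mice, YHY was not tested against Ctrl, and in bulk tissue fewer cells of a type cannot be told apart from less RNA per cell.

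**Figure D1:**
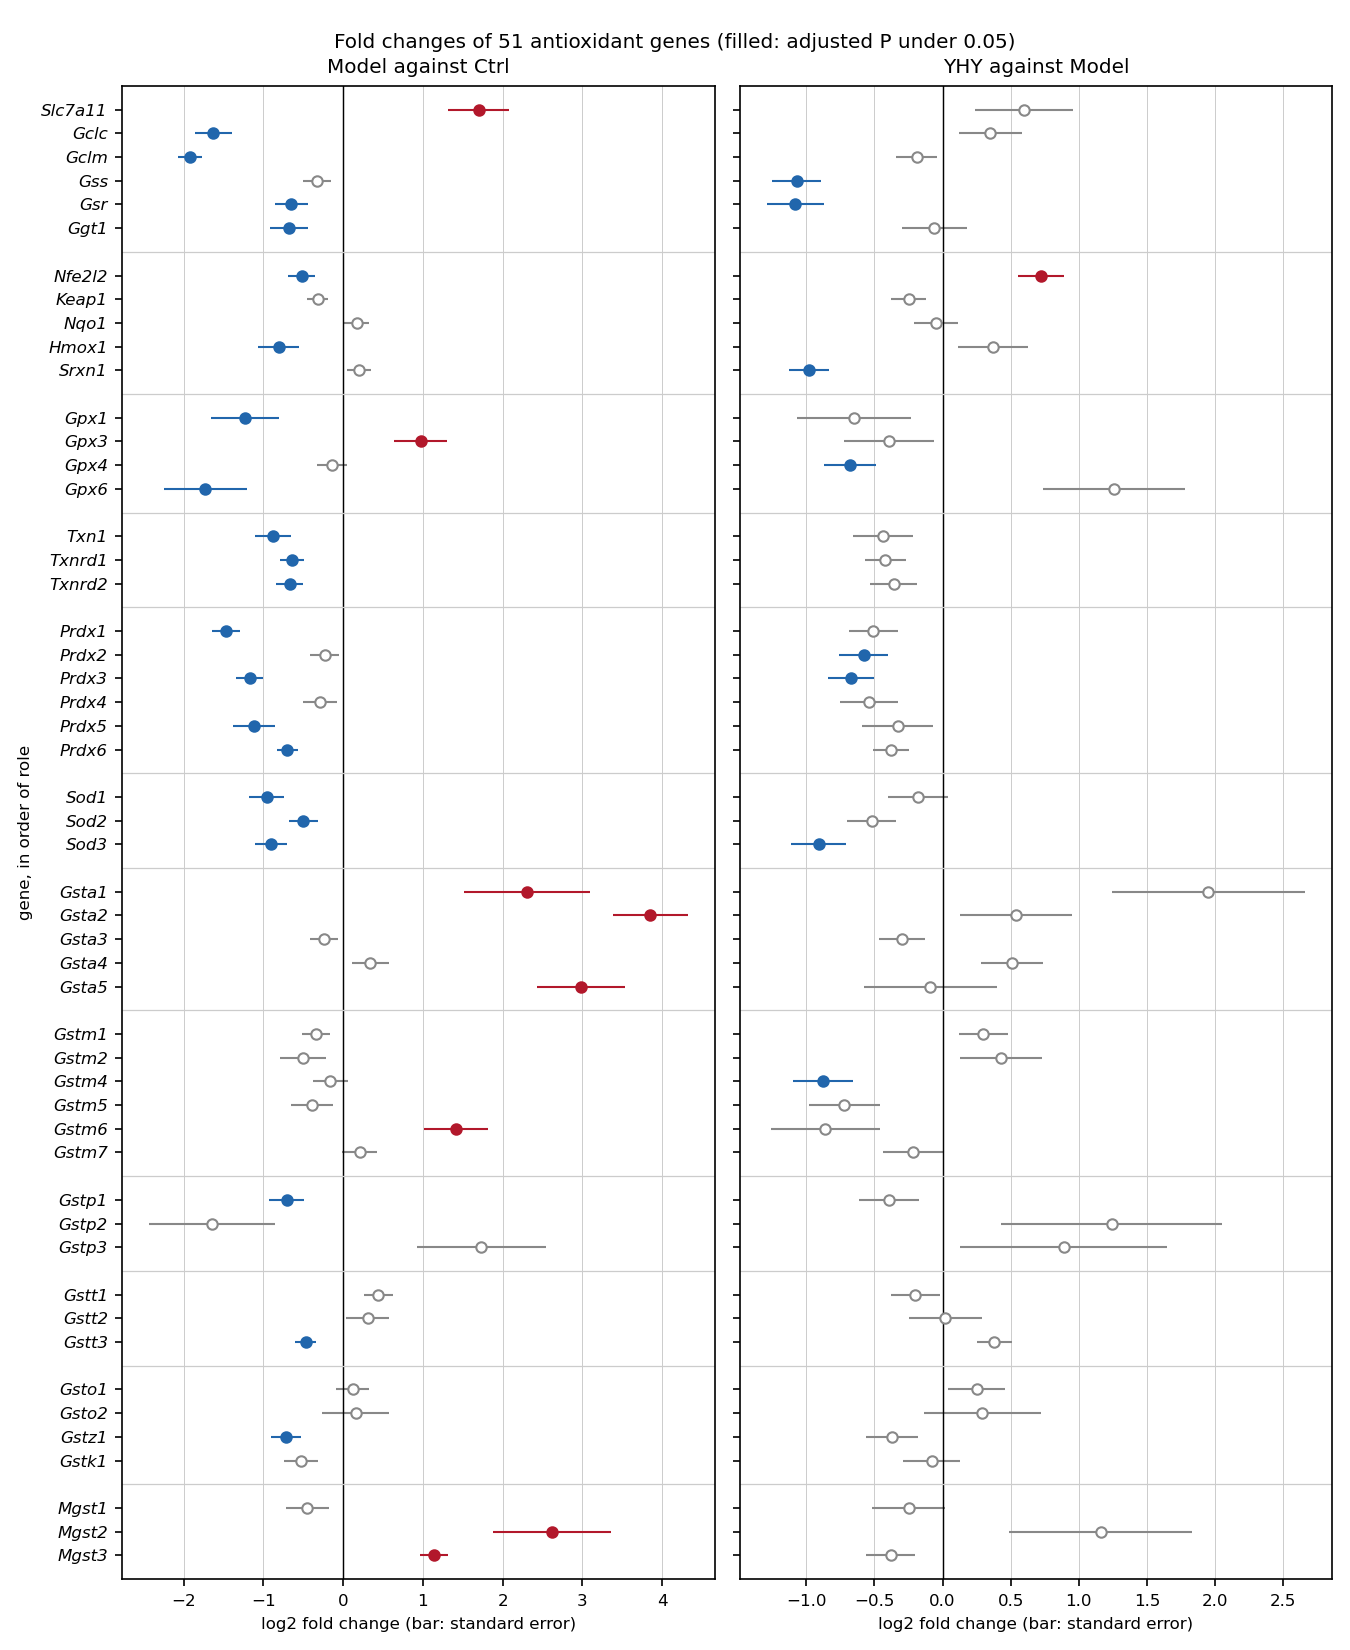
Log2 fold change (x axis) of the 51 tested genes (y axis, ordered by role) for Model relative to Ctrl and for YHY relative to Model, with standard errors as bars and filled points where adjusted P was below 0.05. Called genes run from -1.92 for Gclm to 3.85 for Gsta2 in the first comparison and in the other from -1.08 for Gsr to 0.72 for Nfe2l2.

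The split of calls depended on the scaling. With library size alone the genes gave 30 lower and 5 higher in Model against Ctrl, and with library sizes summed without the mitochondrial genes they gave 10 lower and 13 higher, of 50 tested there. The median of all genes tested moved with them, to -0.39 and to 0.37, and the median of the set's tested genes minus that of all genes tested was -0.43 with TMM, -0.39 with library size alone and -0.41 without the mitochondrial genes, where 50 of the set and 16952 genes in all were tested. Among all genes called, 51.5% were higher with TMM, 21.4% with library size alone and 77.8% without the mitochondrial genes. For YHY against Model the corresponding shares were 42.5, 41.7 and 64.6%. No call of the 51 genes changed its sign in the 22 alternatives. Where a gene lost or gained a call in some of them, these are named below with adjusted P in brackets, and the replicate block among them is a term for mice of the same number.

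The genes of glutathione supply moved in different directions in Model. Slc7a11, which encodes the cystine carrier of the cystine/glutamate exchanger, was higher, while Gclc and Gclm, the catalytic and modifier subunits of the rate-limiting glutamate-cysteine ligase, were lower. Slc7a11 (ENSMUSG00000027737, chr3:49846975-50398063 in GRCm39) stood at 0.937, 1.97, 0.833 and 1.23 CPM in Ctrl, 4.18, 3.05, 3.2 and 5.64 CPM in Model and 5.95, 10.6, 3.87 and 4.07 CPM in YHY. All Model mice exceeded all Ctrl mice, although the gene was scarce in every group (log2 fold change 1.70, SE 0.38, adjusted P = 0.00232). Gclc (chr9) gave 440, 184, 243 and 234 CPM in Ctrl, 95, 78.5, 89.7 and 91.3 CPM in Model and 101, 120, 90.2 and 140 CPM in YHY. Gclm (chr3) gave 416, 427, 427 and 383 CPM in Ctrl, 133, 90.5, 100 and 112 CPM in Model and 87.2, 94.1, 99.6 and 102 CPM in YHY. Every Model mouse lay below every Ctrl mouse for both subunits, and the Ctrl mice spread widely for Gclc, with Ctrl 1 highest, but little for Gclm. Gclc had a log2 fold change of -1.63 (SE 0.23, adjusted P = 8.31e-05), and Gclm one of -1.92 (SE 0.15, adjusted P = 8.44e-07), the lowest of the 51 genes. In YHY against Model these 3 genes missed the threshold, with log2 fold changes of 0.60, 0.35 and -0.19 (adjusted P = 0.297, 0.339 and 0.435).

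Gss and Gsr were called in YHY and Ggt1 was not. Gss encodes glutathione synthetase, which adds glycine, and it measured 358, 478, 380 and 278 CPM in Ctrl, 292, 262, 326 and 309 CPM in Model and 136, 154, 116 and 160 CPM in YHY. The Ctrl and Model mice overlapped (log2 fold change -0.33, SE 0.18, adjusted P = 0.152), and every YHY mouse lay below every Model mouse (log2 fold change -1.07, SE 0.18, adjusted P = 0.00193). Gsr, the glutathione reductase gene, measured 96.6, 105, 90.8 and 110 CPM in Ctrl, 79, 64.2, 58.4 and 54.5 CPM in Model and 22.8, 25, 25.2 and 48.3 CPM in YHY. It stepped down without overlap from Ctrl to Model (log2 fold change -0.65, SE 0.21, adjusted P = 0.023) and again from Model to YHY (log2 fold change -1.08, SE 0.21, adjusted P = 0.00495), with YHY 4 above the other YHY mice. Ggt1, whose product starts glutathione breakdown at the brush border, measured 885, 1050, 854 and 698 CPM in Ctrl, 453, 572, 566 and 584 CPM in Model and 507, 806, 301 and 475 CPM in YHY. It was lower in Model without overlap (log2 fold change -0.68, SE 0.24, adjusted P = 0.0356), and YHY 2 lay above the Model range, YHY 3 below it and the other YHY mice inside it (log2 fold change -0.06, SE 0.24, adjusted P = 0.911). In Model against Ctrl the call of Gsr was lost without Model 2, Model 3 or Model 4 (adjusted P from 0.0526 to 0.0721) or without mitochondrial genes (0.155). That of Ggt1 was lost without Ctrl 2, Model 1, Model 2, Model 3 or Model 4 (adjusted P from 0.0509 to 0.0925), with upper-quartile scaling (0.0634), without mitochondrial genes (0.239) or in the 9 mice behind the deposited means (0.11). Over all alternatives adjusted P ran from 0.000505 to 0.155 for Gsr and from 0.000532 to 0.239 for Ggt1. In YHY against Model the calls of Gss and Gsr held in all 22 alternatives, and Gss was called lower in Model with library size alone (0.00528) and without Ctrl 4 (0.0356).

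**Figure D2:**
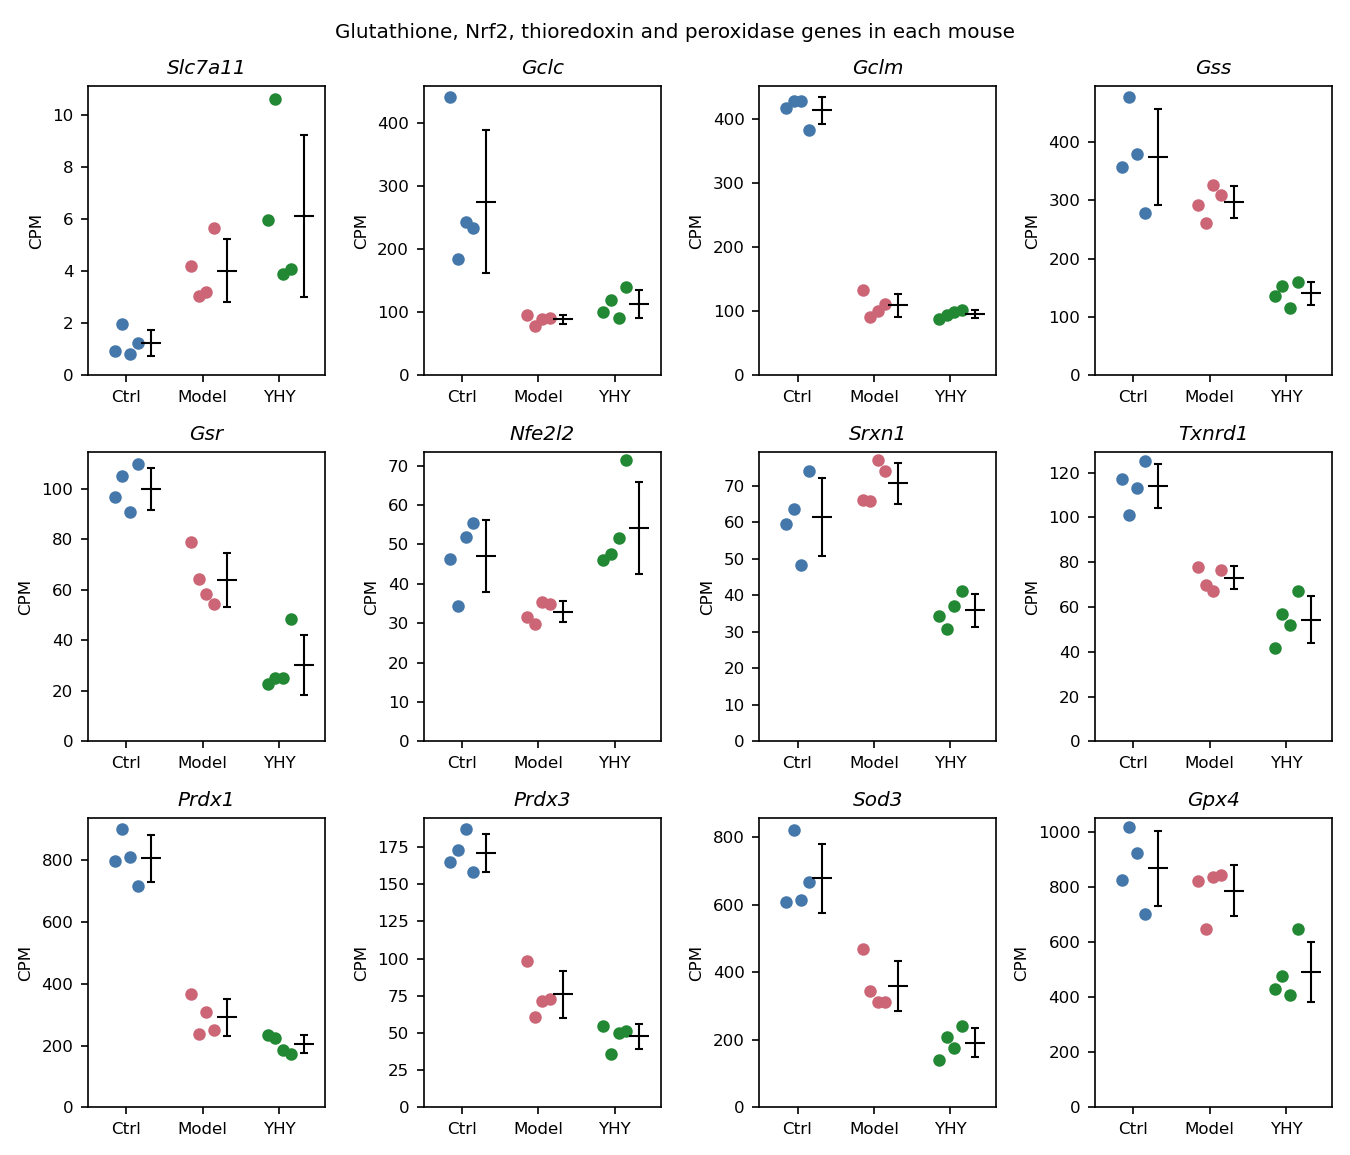
CPM (y axis, from 0) of 12 genes in each mouse of Ctrl, Model and YHY (x axis), with points for mice and the mean ± SD beside them in black. Gclm falls from between 383 and 427 CPM in Ctrl to between 90.5 and 133 CPM in Model, and Srxn1 from between 65.8 and 77 CPM in Model to between 30.7 and 41.2 CPM in YHY.

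Members that fell together in Model include genes known as Nrf2 targets, so the promoters of the genes were searched for the core of the antioxidant response element, TGACNNNGC, on both strands. The windows were taken from RefSeq (GRCm38.p6) and cover 250 bases before to 50 bases after each start. A window was listed for 45 of the 53 genes, and 11 of these genes held the core in at least 1 of their windows, beside 14% of all 27025 genes with a window and 12.4% of the 32851 windows. The core was found for 6 of the 16 genes called lower in Model that had a window (Gclm, Ggt1, Nfe2l2, Txnrd1, Prdx1 and Sod1), for 0 of the 7 called higher and for 5 of the 20 without a call. Of the genes called in YHY against Model, the core was in the windows of Srxn1 and Nfe2l2. A match describes letters in the window and shows no binding. Sequence outside the windows was not searched, so a window without a match does not show that a gene lacks the core. The window of the classical target Nqo1 also held no match. The windows of 3 genes that were lower in Model and of Srxn1 are shown with the matched core in capitals. In each of these 4 it reads as the reverse complement of TGACNNNGC. The window of Gsta2, which was higher in Model, is also shown and holds no match.
Gclm, chr3:122245307-122245606, plus strand: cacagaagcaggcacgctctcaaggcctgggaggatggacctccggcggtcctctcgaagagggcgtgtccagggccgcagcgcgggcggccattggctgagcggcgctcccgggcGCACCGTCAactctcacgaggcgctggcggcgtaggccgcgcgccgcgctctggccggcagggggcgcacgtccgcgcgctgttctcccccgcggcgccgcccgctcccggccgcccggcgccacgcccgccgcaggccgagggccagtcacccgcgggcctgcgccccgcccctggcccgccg
Prdx1, chr4:116685349-116685648, plus strand: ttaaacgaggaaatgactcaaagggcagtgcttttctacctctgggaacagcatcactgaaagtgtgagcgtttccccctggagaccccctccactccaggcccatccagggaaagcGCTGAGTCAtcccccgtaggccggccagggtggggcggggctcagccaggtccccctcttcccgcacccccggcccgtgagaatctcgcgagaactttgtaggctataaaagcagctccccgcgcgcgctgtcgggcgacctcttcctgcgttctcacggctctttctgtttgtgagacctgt
Txnrd1, chr10:82858956-82859255, plus strand: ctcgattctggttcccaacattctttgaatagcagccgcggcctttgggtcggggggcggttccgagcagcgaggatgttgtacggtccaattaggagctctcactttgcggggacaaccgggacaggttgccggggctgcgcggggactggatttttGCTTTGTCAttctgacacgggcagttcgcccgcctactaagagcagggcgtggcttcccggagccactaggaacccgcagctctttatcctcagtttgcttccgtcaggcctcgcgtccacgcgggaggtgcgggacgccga
Srxn1, chr2:152105274-152105573, plus strand: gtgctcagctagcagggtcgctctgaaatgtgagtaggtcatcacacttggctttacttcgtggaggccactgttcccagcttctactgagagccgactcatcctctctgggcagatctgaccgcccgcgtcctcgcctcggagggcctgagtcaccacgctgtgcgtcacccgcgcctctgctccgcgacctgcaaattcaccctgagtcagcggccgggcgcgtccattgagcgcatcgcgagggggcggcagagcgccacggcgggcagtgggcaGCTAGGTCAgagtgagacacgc
Gsta2, chr9:78347096-78347395, minus strand: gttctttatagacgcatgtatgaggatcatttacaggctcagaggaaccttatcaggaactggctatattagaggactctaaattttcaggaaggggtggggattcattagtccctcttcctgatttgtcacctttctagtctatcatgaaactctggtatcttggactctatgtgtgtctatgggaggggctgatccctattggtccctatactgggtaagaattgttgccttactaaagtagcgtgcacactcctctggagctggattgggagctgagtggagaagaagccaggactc

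Nfe2l2 itself was the only member called in opposite directions in the comparisons. It measured 46.4, 34.5, 52 and 55.4 CPM in Ctrl, 31.6, 29.8, 35.3 and 34.8 CPM in Model and 46.1, 47.7, 51.6 and 71.4 CPM in YHY. The Model mice sat low, with an overlap only through Ctrl 2, and all YHY mice exceeded all Model mice. The log2 fold change was -0.52 in Model against Ctrl (SE 0.17, adjusted P = 0.026) and 0.72 in YHY against Model (SE 0.17, adjusted P = 0.0136). The first call was lost without Ctrl 4 or Model 2 (adjusted P from 0.0504 to 0.076), with upper-quartile scaling (0.0596) or without mitochondrial genes (0.392), within a span of 0.00191 to 0.392 in the 22. The second was lost only with library size alone (adjusted P from 0.00134 to 0.061 over the alternatives). Keap1, the adaptor that marks Nrf2 for degradation, measured 29.3, 27.9, 26.2 and 30 CPM in Ctrl, 23.6, 23.3, 23 and 20.7 CPM in Model and 20.8, 16.4, 18.6 and 20.3 CPM in YHY. Its Model mice all lay below the Ctrl mice but adjusted P missed the threshold with edgeR (log2 fold change -0.32, SE 0.13, adjusted P = 0.0551), and its YHY and Model mice overlapped (log2 fold change -0.25, SE 0.13, adjusted P = 0.205). In 8 of the 22 alternatives Keap1 was called lower in Model, with RLE scaling (0.0495), with library size alone (0.00559), in the 8 mice compared (0.0225), in the 9 mice behind the deposited means (0.0455), with DESeq2 (0.035), without Ctrl 3 (0.0457), without Model 1 (0.0319) and without YHY 2 (0.0381).

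Of the classical Nrf2 targets Nqo1, Hmox1 and Srxn1, only Hmox1 was called in Model and only Srxn1 in YHY. Nqo1, a quinone reductase, measured 51.8, 56.5, 65 and 76.2 CPM in Ctrl, 71.9, 62.5, 64.1 and 82.2 CPM in Model and 76.3, 60.6, 59 and 75.2 CPM in YHY. With edgeR it passed the threshold in neither comparison, with log2 fold changes of 0.17 and -0.05 (adjusted P = 0.418 and 0.88). Hmox1, the inducible haem oxygenase, measured 24.5, 23.2, 16.9 and 22.9 CPM in Ctrl, 16.1, 9.72, 13.7 and 10.4 CPM in Model and 11.1, 20.3, 10 and 23.4 CPM in YHY. It was lower in every Model mouse than in any Ctrl mouse (log2 fold change -0.81, SE 0.26, adjusted P = 0.0207), and YHY 2 and YHY 4 reached Ctrl levels while YHY 1 and YHY 3 stayed among the Model mice (log2 fold change 0.37, SE 0.26, adjusted P = 0.366). Its call was lost without Model 2 or Model 4 (adjusted P from 0.0645 to 0.0686) or without mitochondrial genes (0.0914), over a range of 0.00118 to 0.0914 in all alternatives. Srxn1 encodes sulfiredoxin, which repairs over-oxidised peroxiredoxins, and it measured 59.7, 63.6, 48.3 and 74.2 CPM in Ctrl, 66.1, 65.8, 77 and 74 CPM in Model and 34.4, 30.7, 37.1 and 41.2 CPM in YHY. Ctrl and Model overlapped (log2 fold change 0.20, SE 0.15, adjusted P = 0.298), and every YHY mouse lay below every mouse of the other groups (log2 fold change -0.98, SE 0.15, adjusted P = 0.00114). This last call held in all 22 alternatives, with adjusted P from 9.2e-08 to 0.012. When library sizes were summed without the mitochondrial genes, Nqo1 (adjusted P = 0.0339) and Srxn1 (adjusted P = 0.0173) were called higher in Model.

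Gpx3, the secreted glutathione peroxidase of plasma, dominated the set. Gpx3 took 55.6, 63, 54.3 and 64.5% of all counts on the 53 genes in the Ctrl mice, 81.4, 83.8, 83.4 and 81% in Model and 76.1, 85.5, 71.3 and 85.1% in YHY. Its level was 12800, 20700, 12500 and 16900 CPM in Ctrl, 35200, 30700, 32200 and 24800 CPM in Model and 15500, 30500, 11700 and 36300 CPM in YHY. The Model mice exceeded all Ctrl mice (log2 fold change 0.97, SE 0.33, adjusted P = 0.0309), and the YHY mice split, with YHY 2 and YHY 4 among or above the Model mice, YHY 1 inside the Ctrl range and YHY 3 below it (log2 fold change -0.39, SE 0.33, adjusted P = 0.481). The Model call was lost without Ctrl 1, Ctrl 3, Ctrl 4, Model 1, Model 2 or Model 3 (adjusted P from 0.056 to 0.0983) and with library size alone (adjusted P from 0.00129 to 0.127 over the alternatives).

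The other glutathione peroxidases of the set were Gpx1, Gpx4 and Gpx6. Gpx1, the general cytosolic enzyme, measured 139, 249, 179 and 126 CPM in Ctrl, 120, 48.1, 80.3 and 47.5 CPM in Model and 26.4, 46, 18.2 and 98 CPM in YHY. All Model mice lay below all Ctrl mice, with Model 1 closest to them (log2 fold change -1.23, SE 0.43, adjusted P = 0.0328), and the YHY mice spread from below the Model range into it (log2 fold change -0.65, SE 0.42, adjusted P = 0.337). Gpx4, which reduces lipid peroxides in membranes, measured 826, 1020, 923 and 703 CPM in Ctrl, 824, 649, 838 and 843 CPM in Model and 430, 477, 408 and 648 CPM in YHY. It did not pass in Model against Ctrl (log2 fold change -0.14, SE 0.19, adjusted P = 0.586), and the highest YHY mouse, YHY 4, lay just under the lowest Model mouse, Model 2 (log2 fold change -0.68, SE 0.19, adjusted P = 0.0262). Gpx6, a family member that carries cysteine in place of selenocysteine in mice, measured 41, 17.7, 37.4 and 44.6 CPM in Ctrl, 16.9, 8.48, 6.85 and 10 CPM in Model and 22.1, 3.7, 54 and 21.9 CPM in YHY. The Model mice lay below the Ctrl mice (log2 fold change -1.73, SE 0.52, adjusted P = 0.0158), and the YHY mice ran from below the lowest Model mouse to above the highest Ctrl mouse (log2 fold change 1.26, SE 0.52, adjusted P = 0.119). Gpx1 lost its call without Ctrl 2, Ctrl 3, Model 2, Model 3 or Model 4 (adjusted P from 0.0506 to 0.0992), without mitochondrial genes (0.0607), with the replicate block (0.0634) or with DESeq2 (0.0667). Gpx6 lost its call without Model 3 (adjusted P = 0.0523). Gpx4 lost its YHY call without Model 3, Model 4, YHY 1, YHY 2 or YHY 3 (adjusted P from 0.0533 to 0.0784), with library size alone (0.0536) or in the 8 mice compared (0.0596). Over all alternatives adjusted P ran from 0.000378 to 0.0992 for Gpx1, from 1.88e-05 to 0.0523 for Gpx6 and from 0.00211 to 0.0784 for Gpx4. Of the 100-base stretches of Gpx4 in the GENCODE vM21 transcripts, 25.2% also lie in the pseudogene Gpx4-ps2, so reads may have been split between them. Calls that appeared only in alternatives were lower Gpx4 in Model with library size alone (0.0462), and in YHY lower Gpx1 without YHY 4 (0.0247) and higher Gpx6 with no filter (0.0061) and without YHY 2 (0.0161).

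The thioredoxin genes of the set, Txn1, Txnrd1 and Txnrd2, were lower in Model, 3 of 3, beside 18.5% of all genes tested. Txn2 and Txnrd3 are outside the set and were named after their values were seen. With edgeR Txnrd3 had an unadjusted P below 0.05 in Model and Txn2 did not. Txnrd1 (adjusted P = 0.0928) and Txnrd2 (0.154) lost the call when library sizes were summed without the mitochondrial genes. With that scaling 9.42% of all genes tested were lower. Txn1, thioredoxin itself, measured 267, 276, 273 and 243 CPM in Ctrl, 201, 118, 153 and 102 CPM in Model and 86.8, 94.7, 90.4 and 151 CPM in YHY. Txnrd1, the cytosolic thioredoxin reductase, measured 117, 101, 113 and 125 CPM in Ctrl, 77.9, 69.9, 67.3 and 76.7 CPM in Model and 41.9, 56.8, 51.8 and 67.1 CPM in YHY. Txnrd2, the mitochondrial reductase, measured 21.7, 26.7, 23.3 and 19.6 CPM in Ctrl, 13.9, 14.1, 12.3 and 17.2 CPM in Model and 8.55, 10.8, 13.5 and 11.9 CPM in YHY. For each of them all Model mice lay below all Ctrl mice, with log2 fold changes of -0.88 (SE 0.22, adjusted P = 0.0048), -0.64 (SE 0.15, adjusted P = 0.00333) and -0.67 (SE 0.17, adjusted P = 0.00548). With edgeR they missed the threshold in YHY against Model (adjusted P = 0.19 for Txn1 and 0.17 for Txnrd2), although the YHY mice all lay below the Model mice for Txnrd1 (log2 fold change -0.42, SE 0.15, adjusted P = 0.0747). For Txn1 the values of YHY 1 to YHY 3 were lower than in any Model mouse and YHY 4 fell inside the Model range. In alternatives Txn1 was called lower in YHY without YHY 4 (0.0345), and Txnrd1 in the 9 mice behind the deposited means (0.0409), with DESeq2 (0.0344) and without YHY 4 (0.0229).

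The 6 peroxiredoxins remove hydrogen peroxide, all but Prdx6 with electrons from thioredoxin. Of them 4 were lower in Model (66.7%, beside 18.5% of all genes tested), and these 4 kept their calls under every scaling. Of all genes tested, 32.5% were lower with library size alone and 9.42% without mitochondrial genes. Prdx1, an abundant cytosolic member, measured 796, 899, 810 and 715 CPM in Ctrl, 368, 238, 307 and 250 CPM in Model and 233, 225, 185 and 172 CPM in YHY. Prdx3, the mitochondrial member, measured 165, 173, 187 and 158 CPM in Ctrl, 98.4, 61, 71.3 and 73.1 CPM in Model and 54.5, 35.7, 49.7 and 51.6 CPM in YHY. Prdx5, found in mitochondria, peroxisomes and cytosol, measured 1880, 2480, 2000 and 1680 CPM in Ctrl, 1430, 807, 878 and 581 CPM in Model and 581, 566, 804 and 979 CPM in YHY. The Ctrl mice lay above all other mice for each of these genes, and Model 1 was the highest of the Model mice for each. Log2 fold changes in Model against Ctrl were -1.47 for Prdx1 (SE 0.18, adjusted P = 2.59e-05), -1.17 for Prdx3 (SE 0.17, adjusted P = 0.000103) and -1.12 for Prdx5 (SE 0.26, adjusted P = 0.00335). Prdx6, which uses glutathione in place of thioredoxin, measured 167, 175, 179 and 159 CPM in Ctrl, 112, 96.9, 97 and 113 CPM in Model and 78.5, 70.3, 81.8 and 91.6 CPM in YHY and was also lower without overlap (log2 fold change -0.70, SE 0.13, adjusted P = 0.000798).

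Prdx2 and Prdx4 had no call in Model with edgeR. Prdx2, a cytosolic member that is plentiful in red cells, measured 197, 234, 202 and 178 CPM in Ctrl, 233, 144, 169 and 147 CPM in Model and 117, 89, 140 and 119 CPM in YHY. Prdx4, the member of the endoplasmic reticulum, measured 12.7, 18.5, 16 and 11.2 CPM in Ctrl, 14.4, 10.4, 10.8 and 12.3 CPM in Model and 8.66, 7.46, 6.03 and 10.7 CPM in YHY. Ctrl and Model overlapped for both, with log2 fold changes of -0.23 and -0.29 (adjusted P = 0.351 and 0.291), and both values turned positive without the mitochondrial genes. Prdx2 was called lower without Model 1 (0.0484), and Prdx4 with library size alone (0.029). Between YHY and Model, Prdx3 (log2 fold change -0.67, SE 0.17, adjusted P = 0.0188) and Prdx2 (log2 fold change -0.58, SE 0.18, adjusted P = 0.0496) passed, and every YHY mouse lay below every Model mouse for both. Prdx1 (log2 fold change -0.51, SE 0.18, adjusted P = 0.0663) and Prdx6 (log2 fold change -0.38, SE 0.13, adjusted P = 0.0716) did not overlap either but missed the threshold with edgeR, and Prdx4 (adjusted P = 0.099) and Prdx5 (adjusted P = 0.432) overlapped. Alternatives called Prdx1 lower with DESeq2 (0.0254), Prdx6 with DESeq2 (0.0209) and without YHY 4 (0.0401) and Prdx4 without YHY 4 (0.0366). The call of Prdx3 was lost without Model 1 (adjusted P = 0.0663), with library size alone (0.117), without mitochondrial genes (0.0553), in the 8 mice compared (0.0625) or in the 9 mice behind the deposited means (0.0722). Over all alternatives its adjusted P ran from 0.00316 to 0.117. That of Prdx2, just under the threshold, was lost in 17 of the 22 alternatives, over which adjusted P ran from 0.0206 to 0.183. These were without Ctrl 1, Ctrl 2, Ctrl 3, Ctrl 4, Model 1, Model 3, Model 4, YHY 1, YHY 2 or YHY 4 (adjusted P from 0.053 to 0.172), with upper-quartile scaling (0.0634), with RLE scaling (0.0528), with library size alone (0.183), without mitochondrial genes (0.123), in the 8 mice compared (0.123), in the 9 mice behind the deposited means (0.181) and with the replicate block (0.0736).

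The superoxide dismutases were lower in Model, 3 of 3, beside 18.5% of all genes tested, although the call of Sod2 was lost in several alternatives. Sod1, the copper-zinc enzyme of the cytosol, measured 749, 953, 748 and 574 CPM in Ctrl, 526, 366, 374 and 293 CPM in Model and 297, 329, 281 and 472 CPM in YHY. Sod2, the manganese enzyme of mitochondria, measured 303, 345, 319 and 274 CPM in Ctrl, 270, 208, 219 and 179 CPM in Model and 126, 119, 182 and 182 CPM in YHY. Sod3, the extracellular enzyme, measured 607, 823, 614 and 669 CPM in Ctrl, 469, 344, 313 and 312 CPM in Model and 141, 208, 175 and 242 CPM in YHY. No Model mouse reached the lowest Ctrl mouse for any of them, with log2 fold changes of -0.96 (SE 0.22, adjusted P = 0.00322), -0.50 (SE 0.18, adjusted P = 0.0391) and -0.91 (SE 0.20, adjusted P = 0.00195). Sod3 was lower again in YHY than in Model without overlap (log2 fold change -0.91, SE 0.20, adjusted P = 0.00881), a call that held in all 22 alternatives. Sod1 and Sod2 overlapped between YHY and Model (adjusted P = 0.651 and 0.0701), and Sod2 was called lower in YHY with DESeq2 (0.0294) and without YHY 4 (0.0392). The Model call of Sod2 was lost without Ctrl 1, Ctrl 2, Ctrl 3, Model 2, Model 3 or Model 4 (adjusted P from 0.0545 to 0.12), with upper-quartile scaling (0.0931), without mitochondrial genes (0.396) or with the replicate block (0.0616). Over all alternatives its adjusted P ran from 0.00527 to 0.396.

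Glutathione transferases join glutathione to reactive molecules. Of the 24 tested here 3 were lower and 6 higher in Model (12.5 and 25%, beside 18.5 and 19.6% of all genes tested). Among the 6, Gsta1, Gsta5 and Mgst2 passed the count filter only through the db/db mice, where they were higher. Of the 5 alpha-class genes 3 were higher in Model. Gsta2 measured 0.985, 2.59, 4.41 and 2.34 CPM in Ctrl, 60, 27.6, 29.2 and 32.2 CPM in Model and 31.1, 40.7, 34.9 and 110 CPM in YHY. Gsta5 measured 0.072, 0.562, 0.367 and 1.46 CPM in Ctrl, 3.99, 7.15, 3.7 and 4.83 CPM in Model and 4.92, 5.92, 3.5 and 4.11 CPM in YHY. Gsta1 measured 0.168, 0.343, 0 and 0.159 CPM in Ctrl, 0.901, 0.715, 1.32 and 0.342 CPM in Model and 7.75, 2.1, 1.04 and 1.82 CPM in YHY. The Ctrl mice had few counts, 41 to 180 for Gsta2, 3 to 64 for Gsta5 and 0 to 11 for Gsta1, and only Gsta1 overlapped between the groups. Log2 fold changes were 3.85 (SE 0.47, adjusted P = 2.6e-05), 2.98 (SE 0.55, adjusted P = 0.000569) and 2.30 (SE 0.79, adjusted P = 0.0308). With edgeR they missed the threshold in YHY against Model (adjusted P = 0.42, 0.933 and 0.083), where YHY 4 was far above the others for Gsta2 and YHY 1 for Gsta1. The values of these 3 genes are uncertain as single genes, because 80.6% of the 100-base stretches of Gsta1, 31.9% of those of Gsta5 and 28.4% of those of Gsta2 occur in another of them or in Gm3776. Gsta1 lost its call without Ctrl 1, Ctrl 3, Ctrl 4, Model 1 or Model 3 (adjusted P from 0.0596 to 0.0881) or with library size alone (0.0627), and its adjusted P ran from 0.00634 to 0.0881 over all alternatives. Gsta3 and Gsta4 overlapped between Ctrl and Model and did not pass with edgeR (log2 fold changes -0.24 and 0.34), Gsta3 being called lower with library size alone (0.025) and Gsta4 higher without mitochondrial genes (0.0362). Gsta1 was called higher in YHY with no filter (0.0258) and with DESeq2 (0.0269).

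**Figure D3:**
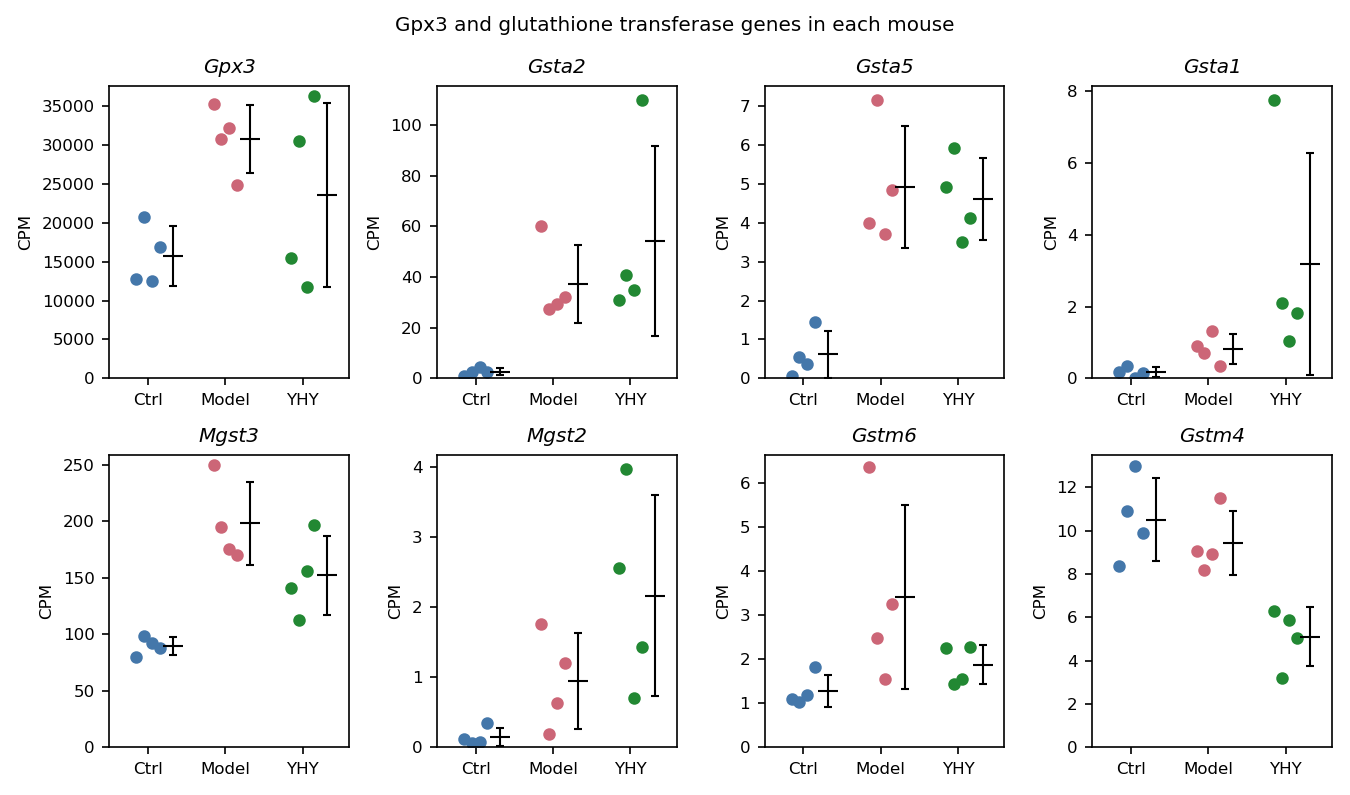
CPM (y axis, from 0) of Gpx3 and 7 glutathione transferase genes in each mouse of Ctrl, Model and YHY (x axis), with points for mice and the mean ± SD beside them in black. Mgst3 lies between 80.1 and 98.2 CPM in Ctrl and between 170 and 250 CPM in Model, and the YHY mice of Gpx3 spread from 11700 to 36300 CPM.

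Of the 3 microsomal transferases Mgst2 and Mgst3 were called higher in Model, where 19.6% of all genes tested were higher. Mgst2 passed the count filter only through the db/db mice, where it was higher. Mgst2, like Gsta1, Gsta5, Gstp2 and Gstp3, was not tested when at least 10 counts in every mouse were asked for. Mgst3, a membrane enzyme with transferase and peroxidase activity, measured 80.1, 98.2, 92.5 and 88.2 CPM in Ctrl, 250, 195, 175 and 170 CPM in Model and 141, 113, 156 and 197 CPM in YHY. Mgst2 measured 0.12, 0.0624, 0.0735 and 0.342 CPM in Ctrl, 1.77, 0.191, 0.639 and 1.2 CPM in Model and 2.56, 3.98, 0.707 and 1.43 CPM in YHY. All Model mice exceeded all Ctrl mice for Mgst3 (log2 fold change 1.14, SE 0.18, adjusted P = 0.000193), whereas Model 2 fell among the Ctrl mice for Mgst2 (log2 fold change 2.62, SE 0.74, adjusted P = 0.0114), which had 2 to 15 counts in a Ctrl mouse. Neither passed in YHY against Model (adjusted P = 0.176 and 0.268), and Mgst1 passed in neither comparison with edgeR (adjusted P = 0.205 and 0.603). Mgst1 was called lower in Model with library size alone (0.0401), in the 9 mice behind the deposited means (0.00212) and without Model 1 (0.0183). The call of Mgst2 was lost in the 9 mice behind the deposited means (from 0.00145 to 0.0965 over the alternatives).

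Of the 6 mu-class genes tested, 0 were lower and 1 was higher in Model (0 and 16.7%, beside 18.5 and 19.6% of all genes tested). Gstm6 measured 1.1, 1.03, 1.2 and 1.82 CPM in Ctrl, 6.37, 2.48, 1.55 and 3.25 CPM in Model and 2.25, 1.44, 1.56 and 2.29 CPM in YHY, with Model 1 far above the rest and Model 3 inside the Ctrl range (log2 fold change 1.41, SE 0.40, adjusted P = 0.0124). Its call was lost without Model 1 (adjusted P = 0.0863), with library size alone and in the 9 mice behind the deposited means (from 0.00316 to 0.162 over the alternatives). Gstm4 measured 8.38, 10.9, 13 and 9.88 CPM in Ctrl, 9.08, 8.19, 8.91 and 11.5 CPM in Model and 6.3, 3.21, 5.88 and 5.04 CPM in YHY. It missed the threshold in Model (log2 fold change -0.16, SE 0.22, adjusted P = 0.603) and was lower in all YHY mice than in any Model mouse (log2 fold change -0.88, SE 0.22, adjusted P = 0.0183). This call was lost without Model 4 (adjusted P = 0.0562), with library size alone (0.0833), without mitochondrial genes (0.0605), in the 8 mice compared (0.0594) or in the 9 mice behind the deposited means (0.0645). Its adjusted P ran from 0.00343 to 0.0833 over all alternatives. Gstm1, the most abundant transferase, measured 443, 600, 507 and 582 CPM in Ctrl, 507, 436, 345 and 399 CPM in Model and 654, 505, 434 and 478 CPM in YHY. It overlapped in both comparisons (adjusted P = 0.154 and 0.3), and Gstm2, Gstm5 and Gstm7 passed in neither with edgeR, with log2 fold changes from -0.50 to 0.21 in Model and from -0.72 to 0.43 in YHY. Gstm5 was called lower in YHY with no filter (0.0167), in the 9 mice behind the deposited means (0.0101), with DESeq2 (0.0417) and without YHY 4 (0.00834). In Model it was called lower with library size alone (0.0271), in the 9 mice behind the deposited means (0.0217) and without Model 1 (0.045). Lower calls in Model also appeared for Gstm1 with library size alone (0.0168) and without Model 1 (0.0454) and for Gstm2 in the 8 mice compared (0.0359).

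Of the 10 tested genes of the pi, theta, omega, zeta and kappa classes, 3 were lower in Model, beside 18.5% of all genes tested. These were Gstz1, which also acts in tyrosine breakdown (log2 fold change -0.72, adjusted P = 0.00748), Gstp1 (-0.71, adjusted P = 0.019) and Gstt3 (-0.47, adjusted P = 0.00941). All 3 lost the call when library sizes were summed without the mitochondrial genes (adjusted P = 0.0578, 0.117 and 0.471). Gstp1 lost it also without Model 2 (adjusted P = 0.0568), and its adjusted P ran from 0.00158 to 0.117 over all alternatives. Gstp1 shares 25.1% of its 100-base stretches with Gstp2, whose own values were 13 to 29 counts in Ctrl. Gstk1 (-0.53, adjusted P = 0.0575) and Gstt1 (0.44, adjusted P = 0.0623) missed the threshold with edgeR, and Gstt2, Gstp2, Gstp3, Gsto1 and Gsto2 had adjusted P of 0.103 or more. Gstk1 was called lower in 10 of the 22 alternatives, with library size alone (0.0045), with no filter (0.0243), in the 8 mice compared (0.0365), in the 9 mice behind the deposited means (0.00626), with DESeq2 (0.0494), without Ctrl 1 (0.0309), without Ctrl 4 (0.0473), without Model 1 (0.0038), without YHY 1 (0.0452) and without YHY 4 (0.0471). Gstt1 was called higher in 4, with upper-quartile scaling (0.0241), without mitochondrial genes (0.00129), with at least 10 counts in every mouse (0.0361) and without Model 4 (0.0482). Gstt2 was called higher without mitochondrial genes (0.0269), and Gstp2 lower in the 9 mice behind the deposited means (0.0465) and without Model 1 (0.0336). Gstp3 was called higher with no filter (0.0497), with the replicate block (0.0332) and without Ctrl 4 (0.00512). In YHY against Model the lowest adjusted P of the 10 was that of Gstt3, for which all YHY mice lay above all Model mice (log2 fold change 0.38, SE 0.13, adjusted P = 0.0672). Gstt3 was called higher in YHY without mitochondrial genes (0.0377), with at least 10 counts in every mouse (0.0456) and with DESeq2 (0.0396), and Gstp1 was called lower without Model 4 (0.0498).

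Per deposited gene length, Gpx3 stood far above every other gene of the set, with a mean of 12900 FPKM over the 12 mice. FPKM is fragments per kilobase and library size, from the same scaling. The deposited lengths are per gene and need not equal that of the main transcript, and the order of genes depends on them. Next came Prdx5 at 571 FPKM, Gpx4 at 415, Gstm1 at 333 and Ggt1 at 189. Within groups the order changed, since Prdx5 had 939 FPKM in Ctrl against 504 for Gpx4, and 431 in Model against 457. In YHY Gstm1 had 352 FPKM, above Prdx5 at 343 and Gpx4 at 285. Ggt1 lay below Prdx1 in Ctrl (256 and 265 FPKM) and below Mgst3 in Model (159 and 180 FPKM). At the other end, Mgst2 averaged 0.294 FPKM and Slc7a11 0.272 FPKM, so their higher calls concern genes of low level.

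Other genes of the same pathways were counted from lists that hold none of the 53, and shares are given as lower and higher, in that order. The lists overlap, since Me1, Taldo1, Pgd, G6pdx and Tkt are in those of NADPH supply and of Nrf2 targets, and Lrp2 is in those of selenium use and of the proximal tubule. Of all genes tested, 32.5 and 8.87% were called with library size alone in Model and 3.94 and 2.82% in YHY. Without mitochondrial genes these shares were 9.42 and 32.9% in Model and 4.9 and 8.93% in YHY. Among 26 genes of the glutathione cycle and its precursors, 14 were lower and 3 higher in Model (53.8 and 11.5%, beside 18.5 and 19.6% of all genes tested, with a median log2 fold change of -0.59). Lowest were Lap3, an aminopeptidase that cleaves cysteinylglycine (-2.11), the gamma-glutamyl cyclotransferase Ggct (-1.72) and the cysteine conjugate acetyltransferase Nat8 (-1.29), and highest were the betaine-homocysteine methyltransferase Bhmt (3.52), the dipeptidase Dpep1 (0.95) and Slc25a10 (0.56). YHY against Model gave 6 lower calls, led by the mitochondrial glutathione carrier Slc25a39 (-1.22), Anpep (-0.91) and the cysteine and glutamate transporter Slc1a1 (-0.91), and 2 higher ones, Ggt5 (0.91) and Oplah (0.66). The shares there were 23.1 and 7.69%, beside 7.62 and 5.63% of all genes tested, and the median was -0.20. The counts depended on the scaling, being 16 lower and 1 higher in Model and 3 lower and 2 higher in YHY with library size alone, and 12 lower and 7 higher in Model and 4 lower and 2 higher in YHY without mitochondrial genes. Nat8 lost its Model call without Model 4 (adjusted P = 0.0517). Dpep1 lost its Model call without Ctrl 4 (adjusted P = 0.0512), and with library size alone (adjusted P = 0.0744). Slc25a10 lost its Model call without Ctrl 1, Ctrl 3, Ctrl 4, Model 1, Model 2, Model 3 or Model 4 (adjusted P up to 0.142), and with RLE scaling, with library size alone or with no filter (adjusted P up to 0.591). Ggt5 lost its YHY call without Model 1, Model 4 or YHY 2 (adjusted P up to 0.0957), and in the 8 mice compared. Oplah lost its YHY call without Model 2, Model 3 or YHY 2 (adjusted P up to 0.0558), and in the 9 mice behind the deposited means (adjusted P = 0.0676).

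The 8 glutaredoxin and glyoxalase genes gave 4 lower calls in Model (50 and 0%, beside 18.5 and 19.6% of all genes tested, median -0.52), with the glyoxalase Hagh at -1.17, the mitochondrial glutaredoxin Glrx5 at -1.16 and the glyoxalase Glo1 at -0.72. YHY against Model gave 3 lower calls (37.5 and 0%, beside 7.62 and 5.63% of all genes tested, median -0.32), Glrx5 at -0.77, Glo1 at -0.58 and Glrx2 at -0.44. Glutaredoxin and glyoxalase genes called were 7 lower and 0 higher in Model and 0 lower and 0 higher in YHY with library size alone, and 2 lower and 1 higher in Model and 1 lower and 0 higher in YHY without mitochondrial genes. Glo1 lost its Model call without mitochondrial genes (adjusted P = 0.0742). Glrx5 lost its YHY call with library size alone (adjusted P = 0.0573). Glo1 lost its YHY call without Ctrl 1, Ctrl 3, Model 1, Model 3, Model 4, YHY 1 or YHY 2 (adjusted P up to 0.0991), and with library size alone, without mitochondrial genes or in the 8 mice compared (adjusted P up to 0.165). Glrx2 lost its YHY call without Ctrl 1, Ctrl 2, Ctrl 3, Ctrl 4, Model 1, Model 3, Model 4, YHY 1, YHY 2 or YHY 3 (adjusted P up to 0.129), and with upper-quartile scaling, with RLE scaling, with library size alone, without mitochondrial genes, with no filter, in the 8 mice compared, in the 9 mice behind the deposited means or with the replicate block (adjusted P up to 0.194).

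Among 17 genes of NADPH supply, 8 were lower in Model (47.1 and 0%, beside 18.5 and 19.6% of all genes tested, median -0.35). In YHY against Model 4 were lower and 1 was higher (23.5 and 5.88%, beside 7.62 and 5.63% of all genes tested, median -0.19). Malic enzyme Me1 was lowest in both comparisons (-2.17 and -1.56), and its calls held in all 22 alternatives. The transaldolase Taldo1 (-1.43) and the isocitrate dehydrogenase Idh1 (-0.82) came next in Model. In YHY, Idh1 (-1.27) and the NAD kinase Nadk (-0.93) came next, and Aldh1l1 was higher (0.68). NADPH genes called were 9 lower and 0 higher in Model and 3 lower and 1 higher in YHY with library size alone, and 2 lower and 3 higher in Model and 3 lower and 1 higher in YHY without mitochondrial genes. Idh1 lost its Model call without Ctrl 1, Ctrl 2, Ctrl 3, Model 2, Model 3, Model 4 or YHY 2 (adjusted P up to 0.145), and with upper-quartile scaling, without mitochondrial genes, with at least 10 counts in every mouse or with the replicate block. Idh1 lost its YHY call without Model 3 (adjusted P = 0.0503). Aldh1l1 lost its YHY call without Model 2, Model 3 or YHY 2 (adjusted P up to 0.058).

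Of 21 genes of selenium use, the supply line of the selenium-containing peroxidases and thioredoxin reductases, 9 were lower and 1 was higher in Model (42.9 and 4.76%, beside 18.5 and 19.6% of all genes tested, median -0.31). Selenop, the selenium transport protein, averaged 824 ± 165 CPM in Ctrl (SD, n = 4) and 70.8 ± 8.73 in Model and fell by 3.54 on the log2 scale, while Selenof had a log2 fold change of -1.73 and Selenos one of -1.72. Selenow was higher (0.44). YHY against Model had 3 lower calls (Selenot -0.77, Eefsec -0.66 and Selenok -0.61) and 2 higher ones (Secisbp2 0.92 and Sepsecs 0.56), with shares of 14.3 and 9.52%, beside 7.62 and 5.63% of all genes tested and a median of -0.27. Under other scalings the selenium genes gave 14 lower and 0 higher in Model and 1 lower and 1 higher in YHY with library size alone, and 7 lower and 3 higher in Model and 2 lower and 2 higher in YHY without mitochondrial genes. Selenow lost its Model call without Ctrl 1, Ctrl 3, Ctrl 4, Model 1, Model 2 or Model 3 (adjusted P up to 0.202), and with library size alone, with no filter, in the 9 mice behind the deposited means or with the replicate block (adjusted P up to 0.919). Eefsec lost its YHY call without Model 1, Model 2, Model 3, YHY 1, YHY 2 or YHY 3 (adjusted P up to 0.0788), and with library size alone, in the 8 mice compared or with the replicate block. Selenok lost its YHY call without Ctrl 1, Ctrl 3, Model 1, Model 3, YHY 1, YHY 2 or YHY 3 (adjusted P up to 0.121), and with library size alone, without mitochondrial genes, in the 8 mice compared, in the 9 mice behind the deposited means or with the replicate block (adjusted P up to 0.125). Sepsecs lost its YHY call without Ctrl 1, Ctrl 2, Ctrl 3, Model 1, Model 2, Model 3, Model 4, YHY 2 or YHY 4 (adjusted P up to 0.109), and with library size alone, in the 8 mice compared, in the 9 mice behind the deposited means or with the replicate block.

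Of 15 regulators around Nrf2, 2 were lower in Model (13.3 and 0%, beside 18.5 and 19.6% of all genes tested, median -0.14), the Keap1-binding autophagy receptor Sqstm1 (-1.09) and Cul3, the ubiquitin ligase scaffold that works with Keap1 (-1.08), and both calls held in all 22 alternatives. With edgeR 0 of them passed for YHY, and without YHY 4 1 was lower and 1 higher. An unadjusted P below 0.05 was reached by 5, Rbx1, Gsk3b, Pgam5, Maff and Palb2, and DESeq2 called 1, Palb2, all named after their values were seen. Regulators called were 7 lower and 0 higher in Model and 0 lower and 0 higher in YHY with library size alone, and 2 lower and 5 higher in Model and 0 lower and 0 higher in YHY without mitochondrial genes. Of 24 further Nrf2 targets tested, 7 were lower and 5 higher in Model (29.2 and 20.8%, beside 18.5 and 19.6% of all genes tested, median -0.10). Lowest were the aldose reductase Akr1b3 (-3.01, SE 0.83), Me1 and Taldo1, and highest were the transporters Abcc3 (2.61) and Abcc4 (1.26) and the oxidase Aox1 (2.10). Akr1b3 was uneven, at 229 ± 161 CPM (mean ± SD) in Ctrl and 28.3 ± 4.64 in Model. Aox1 was scarce, at 0.333 ± 0.144 CPM in Ctrl and 1.47 ± 0.409 in Model. Abcc4 lost its Model call with library size alone (adjusted P = 0.0501). YHY against Model had 6 lower calls (median -0.14, shares 25 and 4.17%, beside 7.62 and 5.63% of all genes tested), led by Me1, the haem transporter Slc48a1 (-0.99) and the ferritin light chain Ftl1 (-0.90), and 1 higher, Abcc1 (0.69). Abcc1 lost its YHY call without Ctrl 1, Ctrl 2, Ctrl 3, Model 1, Model 2, Model 3, Model 4, YHY 1 or YHY 2 (adjusted P up to 0.138), and with library size alone, in the 8 mice compared or with the replicate block. Further targets called were 12 lower and 2 higher in Model and 4 lower and 0 higher in YHY with library size alone, and 3 lower and 9 higher in Model and 5 lower and 1 higher in YHY without mitochondrial genes.

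Of 13 other thioredoxin-like and repair genes, 4 were lower and 1 was higher in Model (30.8 and 7.69%, beside 18.5 and 19.6% of all genes tested, median -0.22). The methionine sulfoxide reductases Msrb1 (-1.22) and Msra (-1.03) and the thioredoxin-like Txnl1 (-0.93) were lowest, and Txnip, which binds thioredoxin, was higher (0.70). In YHY (38.5 and 15.4%, beside 7.62 and 5.63% of all genes tested, median -0.20) Msra (-1.44), Park7 (-0.91) and Msrb1 (-0.79) led 5 lower calls, and the sestrins Sesn1 (0.79) and Sesn2 (0.73) were higher. Thioredoxin-like and repair genes called were 7 lower and 0 higher in Model and 3 lower and 2 higher in YHY with library size alone, and 3 lower and 2 higher in Model and 4 lower and 3 higher in YHY without mitochondrial genes. Txnip lost its Model call without Ctrl 1 or Ctrl 4 (adjusted P up to 0.0662), and with library size alone (adjusted P = 0.301). Sesn1 lost its YHY call without Model 3, Model 4 or YHY 2 (adjusted P up to 0.0816). Sesn2 lost its YHY call without Model 1, Model 3, Model 4, YHY 2 or YHY 4 (adjusted P up to 0.113), and in the 9 mice behind the deposited means.

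Of 10 other peroxidase and haem genes, Gpx2 and Gpx5 had 0 counts in all mice and 8 were tested. Catalase, Cat (-1.15), and Hmox2 (-1.04) were lower and Gpx8 was higher (0.50) in Model (25 and 12.5%, beside 18.5 and 19.6% of all genes tested, median 0.12). Gpx8 lost its Model call without Ctrl 1, Ctrl 2, Ctrl 3, Ctrl 4, Model 1, Model 3 or Model 4 (adjusted P up to 0.158), and with library size alone, with no filter or in the 9 mice behind the deposited means (adjusted P up to 0.835). In YHY (median -0.36) 0 passed with edgeR or DESeq2 and 3 had an unadjusted P under 0.05 (Cat, Gpx8 and Aifm2, named after their values were seen). Without YHY 1, without YHY 4 and in the 9 mice behind the deposited means 1 was called lower. Peroxidase and haem genes called were 4 lower and 0 higher in Model and 0 lower and 0 higher in YHY with library size alone, and 2 lower and 4 higher in Model and 0 lower and 0 higher in YHY without mitochondrial genes. Of 13 oxidant-producing genes tested, the xanthine oxidoreductase Xdh was higher in both comparisons (1.02 and 0.96), in all 22 alternatives. Rac1 (-1.18) was lower in Model (7.69 and 7.69%, beside 18.5 and 19.6% of all genes tested, median 0.17). In YHY (15.4 and 7.69%, beside 7.62 and 5.63% of all genes tested, median -0.03) Poldip2 (-1.22) and the amino acid oxidase Dao (-0.85) were lower. Dao lost its YHY call without Ctrl 1, Ctrl 2, Ctrl 3, Model 1, Model 2, Model 3, Model 4, YHY 1, YHY 2 or YHY 3 (adjusted P up to 0.116), and in the 8 mice compared or with the replicate block. Oxidant-producing genes called were 4 lower and 1 higher in Model and 2 lower and 1 higher in YHY with library size alone, and 1 lower and 2 higher in Model and 2 lower and 1 higher in YHY without mitochondrial genes.

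Markers of the proximal tubule also differed. All 11 were detected, none being at 0, and 6 were lower and 0 higher in Model (54.5 and 0%, beside 18.5 and 19.6% of all genes tested), with Cyp7b1 (-5.68), Acsm3 (-5.04) and Kap (-3.06) lowest. With edgeR the markers Slc5a2, Slc5a12, Slc34a1 and Miox, named after their values were seen, did not reach an unadjusted P below 0.05 in Model. Their summed level was 51200, 66600, 53500 and 25000 CPM in Ctrl, 11700, 7670, 10400 and 7170 in Model and 5050, 9390, 3940 and 9930 in YHY. Kap was the most abundant of them, and without it the sums were 6560, 8450, 6680 and 4720 CPM in Ctrl, 4750, 4200, 4480 and 3130 in Model and 1630, 3620, 2190 and 4780 in YHY. Ctrl 4 then lay just under Model 1, and YHY 1 and YHY 3 lay below every other mouse, as they did for Gpx3 among the db/db mice. YHY against Model had Slc7a13 lower (-1.11) and Cyp7b1 higher (0.62), which is 9.09 and 9.09%, beside 7.62 and 5.63% of all genes tested. The median log2 fold change of the markers was -0.90 in Model and -0.55 in YHY. In YHY an unadjusted P below 0.05 was reached by 6 of the 11, and DESeq2 called 5. Proximal markers called were 8 lower and 0 higher in Model and 2 lower and 0 higher in YHY with library size alone, and 6 lower and 0 higher in Model and 1 lower and 1 higher in YHY without mitochondrial genes. Slc7a13 lost its YHY call in the 9 mice behind the deposited means (adjusted P = 0.0582). Cyp7b1 lost its YHY call without Ctrl 1, Ctrl 3, Ctrl 4, Model 1, Model 2, Model 3, YHY 1, YHY 2 or YHY 3 (adjusted P up to 0.138), and with library size alone, in the 8 mice compared or with the replicate block. The part of these markers in the results was not tested.

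**Figure D4:**
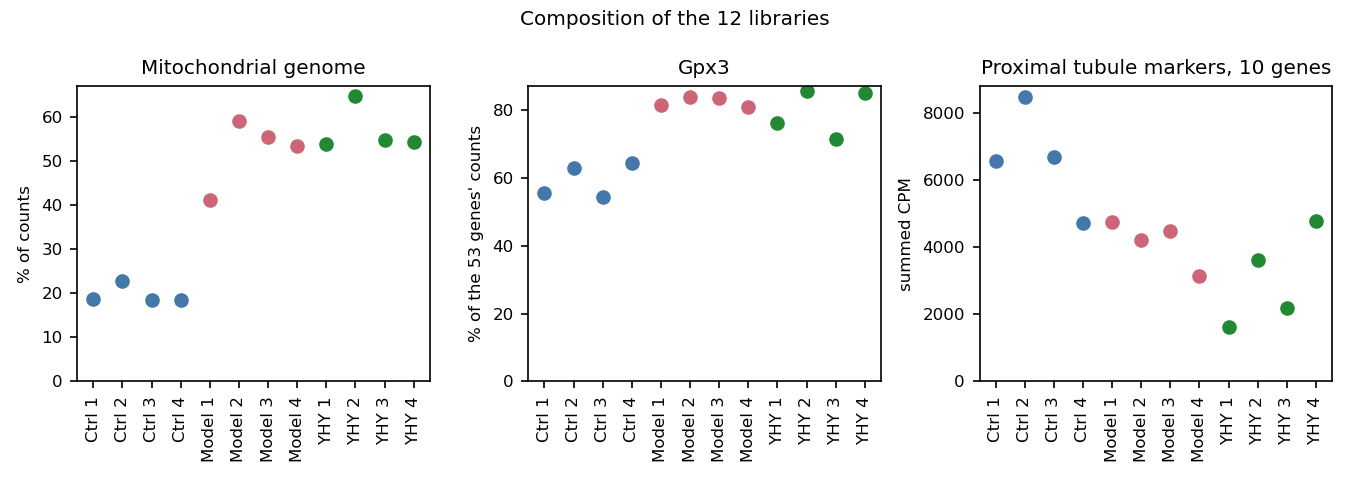
Mitochondrial share of counts, share of Gpx3 in the counts of the 53 genes, and summed CPM of 10 proximal tubule markers without Kap (y axes, from 0) in each of the 12 mice (x axes). The Ctrl mice lie between 18.4 and 22.7% in mitochondrial share and the db/db mice between 41.2 and 64.6%, and YHY 1 has the lowest marker sum, 1630 CPM.

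Markers of other cells were counted in Model as well, where 18.5% of all genes tested were lower and 19.6% higher. Of 7 loop and distal markers Umod (-2.86) and Cldn10 (-1.02) were lower and Trpm6 (2.07) and Slc12a3 (1.33) higher, and of 8 collecting duct markers Aqp3 (-1.72), Hsd11b2 (-1.54) and Aqp2 (-1.18) were lower. The podocyte genes Nphs1 (1.86) and Synpo (0.53) of 6, the endothelial genes Ehd3 (0.72) and Flt1 (0.67) of 7 and the stromal gene Pdgfrb (0.51) of 7 were higher. Of 7 macrophage markers C1qc (-1.62), C1qa (-1.08) and C1qb (15.6 ± 4.26 CPM in Ctrl, mean ± SD, and 7.81 ± 0.869 in Model) were lower and Cd68 (1.05) higher. Of 5 erythroid markers Alas2 (-1.87), Hbb-bs (-1.46) and Hbb-bt (-1.17) were lower and Hba-a2 (0.70) higher. Of 6 tubular injury genes Cdkn1a was higher (1.10) and Havcr1 was lower (3.14 ± 0.571 CPM in Ctrl, mean ± SD, and 0.109 ± 0.123 in Model). With library size alone and then without mitochondrial genes, the Model counts were 2 lower and 2 higher, then 1 lower and 3 higher, for loop and distal markers. They were 4 lower and 0 higher, then 2 lower and 0 higher, for collecting duct, 1 lower and 1 higher, then 0 lower and 3 higher, for podocyte and 0 lower and 0 higher, then 0 lower and 3 higher, for endothelial markers. They were 3 lower and 0 higher, then 0 lower and 3 higher, for stromal and 3 lower and 0 higher, then 2 lower and 1 higher, for macrophage markers. Erythroid markers had 3 lower and 0 higher, then 2 lower and 1 higher, injury genes 1 lower and 0 higher, then 1 lower and 2 higher, and lymphocyte genes 2 lower and 0 higher, then 0 lower and 0 higher, in Model. Cldn10 lost its Model call without Ctrl 3, Model 2, Model 3 or Model 4 (adjusted P up to 0.0774), and without mitochondrial genes (adjusted P = 0.119). Aqp2 lost its Model call without Ctrl 1, Ctrl 4, Model 2, Model 3 or Model 4 (adjusted P up to 0.139), and with upper-quartile scaling, without mitochondrial genes or with DESeq2. Synpo lost its Model call without Ctrl 1, Ctrl 2, Ctrl 3, Ctrl 4, Model 1, Model 2, Model 3 or YHY 3 (adjusted P up to 0.196), and with library size alone, in the 9 mice behind the deposited means or with the replicate block (adjusted P up to 0.732). Ehd3 lost its Model call with library size alone (adjusted P = 0.269). Flt1 lost its Model call with library size alone (adjusted P = 0.271). Pdgfrb lost its Model call without Ctrl 1, Ctrl 2, Ctrl 3, Ctrl 4, Model 2 or Model 3 (adjusted P up to 0.104), and with library size alone (adjusted P = 0.802). Cd68 lost its Model call with library size alone (adjusted P = 0.0965). C1qb lost its Model call without mitochondrial genes (adjusted P = 0.0617). Hba-a2 lost its Model call without Ctrl 1, Ctrl 2, Ctrl 3, Model 1, Model 2, Model 3 or Model 4 (adjusted P up to 0.157), and with library size alone or in the 9 mice behind the deposited means (adjusted P up to 0.541). Hbb-bt lost its Model call without Ctrl 4, Model 2, Model 3 or Model 4 (adjusted P up to 0.0713), and without mitochondrial genes (adjusted P = 0.0778). Cdkn1a lost its Model call without Ctrl 2, Ctrl 3 or Model 4 (adjusted P up to 0.117), and with library size alone or in the 9 mice behind the deposited means (adjusted P up to 0.213).

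In YHY, where 7.62% of all genes tested were lower and 5.63% higher, Pvalb (-1.59) of the loop and distal list and Atp6v1g3 (-1.13) of the collecting duct list were lower than in Model, and both calls held in all 22 alternatives. Myh11 (0.56) of the stromal list, Alas2 (1.71) and Hbb-bs (1.29) of the erythroid list and Lcn2 (2.06) of the injury list were higher. In the same order of scalings, YHY counts were 2 lower and 0 higher, then 1 lower and 0 higher, for loop and distal and 1 lower and 0 higher, then 1 lower and 1 higher, for collecting duct markers. They were 0 lower and 0 higher, then 0 lower and 1 higher, for stromal markers, 0 lower and 1 higher, then 0 lower and 3 higher, for erythroid markers and 0 lower and 0 higher, then 0 lower and 1 higher, for injury genes. Myh11 lost its YHY call without Ctrl 1, Ctrl 2, Ctrl 3, Ctrl 4, Model 1, Model 2, Model 3, Model 4, YHY 1, YHY 2 or YHY 3 (adjusted P up to 0.136), and with library size alone or in the 8 mice compared. Alas2 lost its YHY call without Model 1, Model 2, Model 3, Model 4 or YHY 3 (adjusted P up to 0.0786), and in the 9 mice behind the deposited means (adjusted P = 0.0904). Hbb-bs lost its YHY call without Model 1, Model 2, Model 3, Model 4, YHY 3 or YHY 4 (adjusted P up to 0.0813), and with library size alone or in the 9 mice behind the deposited means. Lcn2 lost its YHY call without Model 1, Model 2, Model 3, Model 4, YHY 1 or YHY 3 (adjusted P up to 0.116), and with library size alone. With edgeR the podocyte, endothelial and macrophage lists gave 0 calls in this comparison, with 2, 1 and 2 genes at an unadjusted P under 0.05 and DESeq2 calling 1 endothelial gene, Kdr, named here after its value was seen. Other edgeR fits called some of these genes. Without YHY 4, 1 podocyte and 1 endothelial gene were lower and 2 macrophage genes higher, and without Model 4, 2 podocyte genes and 1 endothelial gene were lower. With no filter 2 podocyte genes were lower and 1 macrophage gene higher, and in the 9 mice behind the deposited means 1 was lower and 1 higher. Of the lymphocyte genes 3 were tested and 0 passed with edgeR in either comparison, 1 having an unadjusted P under 0.05 in each and DESeq2 calling Trbc2, named after its value was seen, in Model. Without Ctrl 4, without Model 1, with the replicate block and in the 9 mice behind the deposited means 1 lymphocyte gene was lower in Model. Of the adipocyte genes 2 were tested, and 0 passed with edgeR, DESeq2 or at an unadjusted P under 0.05. The part of these markers in the results on the 53 genes was not tested.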

How the data were processed

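Per the labels, polyA mRNA of 12 kidneys was sequenced, 1 library per mouse. The authors deposited raw counts of reads per gene, and the submitters' processing notes name FastQC 0.11.9, Trimmomatic 0.39, HISAT2 2.2.1, SAMtools 1.12, featureCounts 2.0.1, DESeq2 1.34.0 and R 4.1.2 with the GRCm39 genome. Whether strand was used in counting is not given in the sources used here, so reads of overlapping antisense genes cannot be told apart. The authors also deposited group means of normalized counts (a signal value), which served only to find that 3 mice of each group entered these means (all but Ctrl 2, Model 1 and YHY 4). The fold-change and p-value columns hold the authors' own comparisons, and pathway tables hold their enrichment results, and neither was used. A further 12 columns of values per mouse were not used.

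Counts of 57490 genes were tested with edgeR 4.0.16 (R 4.3.3, limma 3.58.1) in 1 fit of 12 mice, with TMM scaling, filterByExpr by group, the two-sided quasi-likelihood test and Benjamini-Hochberg adjustment over 17431 genes, and called at an adjusted P under 0.05. The steps were tested on simulated data. These were drawn from an average composition shared by all libraries, so scaling under the difference in mitochondrial share was not tested. Replicates within a group differed beyond counting noise (chi-square per degree of freedom from 17.3 to 139). Alternatives were DESeq2 1.42.0, other scalings, filters, samples, a replicate block, leaving out each mouse, and the study's limits of a fold over 1.2 with an unadjusted P under 0.05. Figures were drawn with matplotlib 3.10.9 in Python 3.11.15. Shared sequence was counted over 100-base stretches of GENCODE vM21 transcripts.

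The genes and lists were chosen with earlier results of these data known. Values per mouse are given for the up to 6 called genes with the largest log2 fold change per comparison and direction, for a fixed list of core enzymes and regulators, and for the 5 genes with the highest mean FPKM, and Mgst3 was added after its values were seen. From each other list up to 3 called genes per direction are named, and 2 genes, taken out of these lists after the analysis for a reason other than their values, are not reported here.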

Additional observations from a re-analysis of the deposited data

Results flagged for a closer look

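In 10 of 155 sets of 4 mice (a gene in a group), 1 mouse lay far from the other 3, by a gap above Dixon's 95% limit, where chance gives about 1 in 20. Model 1 stood apart for Ggt1 (453 CPM, the others 566 to 584), Gsta2 (60 CPM, the others 27.6 to 32.2), Gstt1 (216 CPM, the others 124 to 136) and Mgst1 (58.1 CPM, the others 28.6 to 31.2). YHY 4 stood apart for Gsr (48.3 CPM, the others 22.8 to 25.2), Txn1 (151 CPM, the others 86.8 to 94.7) and Gsta2 (110 CPM, the others 31.1 to 40.7). The remaining values were Gpx4 in Model 2 (649 CPM, the others 824 to 843), Gsta1 in YHY 1 (7.75 CPM, the others 1.04 to 2.1) and Gstp3 in Ctrl 4 (1.02 CPM, the others 0.048 to 0.187).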

How the results depend on the processing

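Of the 29 genes called in Model against Ctrl, 13 kept their call in every alternative in which they were tested (Prdx1, Prdx3, Prdx5, Prdx6, Sod1, Sod3, Gclc, Gclm, Txn1, Mgst3, Gsta2, Gsta5 and Slc7a11), and of the 9 called in YHY against Model 4 did (Gss, Gsr, Srxn1 and Sod3). In Model against Ctrl, 5 genes were higher with library size alone, and 13 were higher and 10 lower with library sizes summed without the mitochondrial genes. Of all genes tested, 8.87% were higher with library size alone, and 32.9% were higher and 9.42% lower without the mitochondrial genes. Leaving out 1 mouse gave 5 to 9 higher and 14 to 27 lower, where 14.1 to 20.3% of all genes tested were higher and 14.4 to 20.9% lower.

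YHY against Model gave 0 higher and 4 lower with library size alone, 2 higher and 5 lower without the mitochondrial genes, 3 higher with no filter, 2 higher with at least 10 counts in every mouse, 4 lower in a fit of only the 8 mice compared, 3 higher and 13 lower with DESeq2, and 5 higher and 16 lower with the study's limits. A test against a fold of 1.2 (glmTreat), chosen after seeing the data, gave 4 lower. Leaving out 1 mouse gave 1 to 2 higher and 6 to 14 lower, the last without YHY 4. Of all genes tested, 2.32 to 5.89% were then higher and 4.02 to 9.46% lower. These shares were lowest without Model 3 and highest without YHY 4. The causes of these shifts were not tested.

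With the replicate block, 9 genes were higher and 19 lower in Model against Ctrl, and 1 higher and 7 lower in YHY against Model. Of all genes tested in that fit, 18.4% were higher and 17.7% lower in Model, and 4.55 and 6.47% in YHY. Same-numbered mice correlated by -0.04 to 0.1 and by -0.21 to 0.07 in their deviations from the group means. These values gave no sign of pairing by number, but 4 pairs per comparison are too few to exclude it. Of the genes named from other lists, 36 of 56 calls in Model against Ctrl and 16 of 36 in YHY against Model held in every alternative. The count filter left out Gstm3 and Gstt4, which were not called with no filter or with DESeq2.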
